A study of Mus musculus with 12 samples.

Results

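The IL-2 receptor and STAT5 axis was followed here as 56 regions of accessible chromatin around 9 genes, out of 76882 regions found in 12 ATAC-seq libraries of sorted mouse CD4 T cells. ATAC-seq finds open chromatin by where a transposase can insert adapters into DNA. The 9 genes are Il2, Il2ra, Il2rb, Il2rg, Stat5a, Stat5b, Socs1, Socs2 and Cish. Peaks of all 12 lists that shared 1 bp or more were merged into regions, and a region was kept if its midpoint lay in the RefSeq body of one of these genes or, outside gene bodies, nearest to its end within 50 kb. Of the 56 regions, 29 lay in a gene body and 27 outside. They are numbered below within each gene in order of genome coordinates (mm10 build).

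IL-2 is a growth and survival cytokine made mainly by activated conventional T cells. Its high-affinity receptor joins the alpha chain CD25 (Il2ra) to the beta chain (Il2rb) and the common gamma chain (Il2rg), and signals through JAK kinases to the transcription factors STAT5A and STAT5B. STAT5 turns on genes that include Il2ra, Cish, Socs1 and Socs2, and the products of Cish, Socs1 and Socs2 dampen cytokine signalling in turn. Regulatory T cells (Treg) depend on IL-2 from other cells, carry much CD25 and make little IL-2 themselves.

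The cells came from Balb/c mice, and each of 6 groups had 2 libraries. T cells carrying 6.5TCR, a receptor specific for hemagglutinin (HA), had been transferred into Aire-HA hosts, and subsets were sorted from bone marrow 14 days later. Regulatory cells induced in culture (iTreg, CD3+CD4+CD25+LAP+, from WTBalbc cells per the descriptions) formed a group of their own, with culture conditions not given in the sources used here. Donor Treg were transferred cells that had converted to regulatory cells, sorted as CD3+CD4+ cells with CD45.2 but not CD45.1 and with CD25 and LAP. LAP is the propeptide of TGF-beta. Host pTreg and host tTreg were CD3+CD4+ cells with both CD45.1 and CD45.2 and with CD25 and CTLA4, host pTreg without and host tTreg with Nrp1. Donor Tconv were transferred cells that had not converted, with CD45.2 but not CD45.1 and without CD25. Host Tconv, with CD45.1 but neither CD45.2 nor CD25, are called wild type in their titles and Aire-HCO in their descriptions. The host regulatory cells therefore carried both CD45 alleles and the host Tconv cells a single one, which limits the host comparisons. CD25 was a sort marker in every group, so no Il2ra region counts as a finding between CD25-positive and CD25-negative cells.

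Promoter sequences are shown for 3 members, because each has a peak over its start in all 12 libraries and the results below return to these peaks. They are RefSeq windows of GRCm38.p6, which shares mm10 coordinates, from 250 bases before to 50 bases after the start, written along the strand of the gene. Capitals mark matches, on either strand, to TTCNNNGAA and TTCNNNNGAA (spacings bound by STAT proteins), TGANTCA (AP-1), GGAAAA (NFAT) or TGTGGT (RUNX). The windows are chr9:107296409-107296708 on the plus strand for Cish, chr3:37125905-37126204 on the minus strand for Il2, and chr2:11642542-11642841 on the plus strand for Il2ra.
Cish: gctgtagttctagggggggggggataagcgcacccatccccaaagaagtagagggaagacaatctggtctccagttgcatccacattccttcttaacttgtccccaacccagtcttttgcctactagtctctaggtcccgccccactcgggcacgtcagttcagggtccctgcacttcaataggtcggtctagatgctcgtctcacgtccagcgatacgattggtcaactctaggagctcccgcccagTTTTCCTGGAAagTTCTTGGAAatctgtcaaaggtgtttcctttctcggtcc
Il2: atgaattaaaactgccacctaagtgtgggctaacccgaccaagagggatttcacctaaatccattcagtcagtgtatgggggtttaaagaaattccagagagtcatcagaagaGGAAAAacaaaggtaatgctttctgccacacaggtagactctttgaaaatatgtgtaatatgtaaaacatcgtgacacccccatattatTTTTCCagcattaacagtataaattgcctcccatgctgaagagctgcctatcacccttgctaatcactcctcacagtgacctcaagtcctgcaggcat
Il2ra: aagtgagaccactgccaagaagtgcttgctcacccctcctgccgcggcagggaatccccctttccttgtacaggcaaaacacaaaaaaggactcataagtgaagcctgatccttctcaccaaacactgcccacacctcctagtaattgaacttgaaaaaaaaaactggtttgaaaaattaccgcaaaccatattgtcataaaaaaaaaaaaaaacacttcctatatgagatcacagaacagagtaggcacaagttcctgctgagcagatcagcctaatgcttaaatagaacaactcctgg

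The Cish window held TTCCTGGAA from the start base itself and TTCTTGGAA 11 bases further on, and an NFAT match that begins 2 bases upstream and overlaps the first of them. Of 32851 RefSeq promoter windows, 8.3% held TTCNNNGAA at least once and 0.457% at least 2 times. Both Cish matches lay under a peak in all 12 libraries. The Il2 window held 2 NFAT matches, beginning at -137 and -48 from the start, and 3.62% of windows held 2 or more, while 23.4% held at least 1. The Il2ra window held no match to any of the 5 motifs, and AP-1 and the TTCNNNNGAA spacing were found in none of the 7 members that have a window, against 7.81% and 6.95% of all windows. A RUNX match, present in 16.8% of windows, occurred once at Il2rg and once at Stat5a. A match describes letters only and shows no binding.

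The libraries held between 28394 peaks (host tTreg replicate 1) and 63207 peaks (iTreg replicate 2), with 28394 to 37934 in the 6 in vivo regulatory libraries and 37050 to 47193 in the 4 conventional ones. Read depth is unknown, since the lists give no counts. Library names carry run code BW13 for donor Treg, donor Tconv and host Tconv, DR31 for host pTreg and host tTreg, and none for iTreg, so the comparisons of iTreg with donor Treg and of host regulatory cells with host Tconv cannot be told apart from the run. A number in the library names, whose meaning is not given, was at most 17000 in every in vivo regulatory library and from 42000 to 50000 in all others. All 8 pan-T and CD4 markers looked at had peaks in every library. The 6 Treg markers had 47 to 56 regions with a peak in in vivo regulatory libraries, 40 to 44 in iTreg and 28 to 42 in conventional libraries. B cell markers had 3 to 7, 14 to 17 and 2 to 8 regions in the same order, with none at Cd79a, and myeloid markers 4 to 7, 13 to 15 and 9 to 13, with none at Csf1r. CD8 T markers had 0 to 1, 6 to 7 and 5 to 8, and stem and progenitor markers 5 to 12, 22 to 24 and 9 to 14. NK markers (none at Klra8) had 4 to 7, 5 and 4, and erythroid markers 2, 5 and 3. The part of these markers in the results on the axis was not tested. In such bulk lists, fewer cells with an open site and a less open site per cell cannot be told apart.

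The axis was open in every group. Of its 56 regions, 22 (39.3%) had a peak in all 12 libraries, against 21435 (27.9%) of all 76882 regions, and each of the 9 genes had at least 1 such region. The number of axis regions with a peak was 41 and 44 in iTreg, 32 and 35 in donor Treg, 34 and 34 in host pTreg, 28 and 35 in host tTreg, 37 and 35 in donor Tconv and 35 and 36 in host Tconv. Only the iTreg libraries stood apart, above all 10 others, and they also had the longest lists. Of the axis regions, 10 (17.9%) were open in both iTreg libraries and no other, a share near that of all regions (16.5%). Covered length showed the same separation for some genes and not for others. Around Il2ra it was 12.98 and 12.78 kb in iTreg, 7.50 and 6.37 kb in host pTreg, 6.31 and 6.48 kb in donor Treg, 4.16 and 6.56 kb in host tTreg, 4.99 and 4.50 kb in donor Tconv and 3.62 and 4.85 kb in host Tconv. In that order of means, iTreg was separate from host pTreg, and every later pair of neighbours overlapped.

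**Figure D1:**
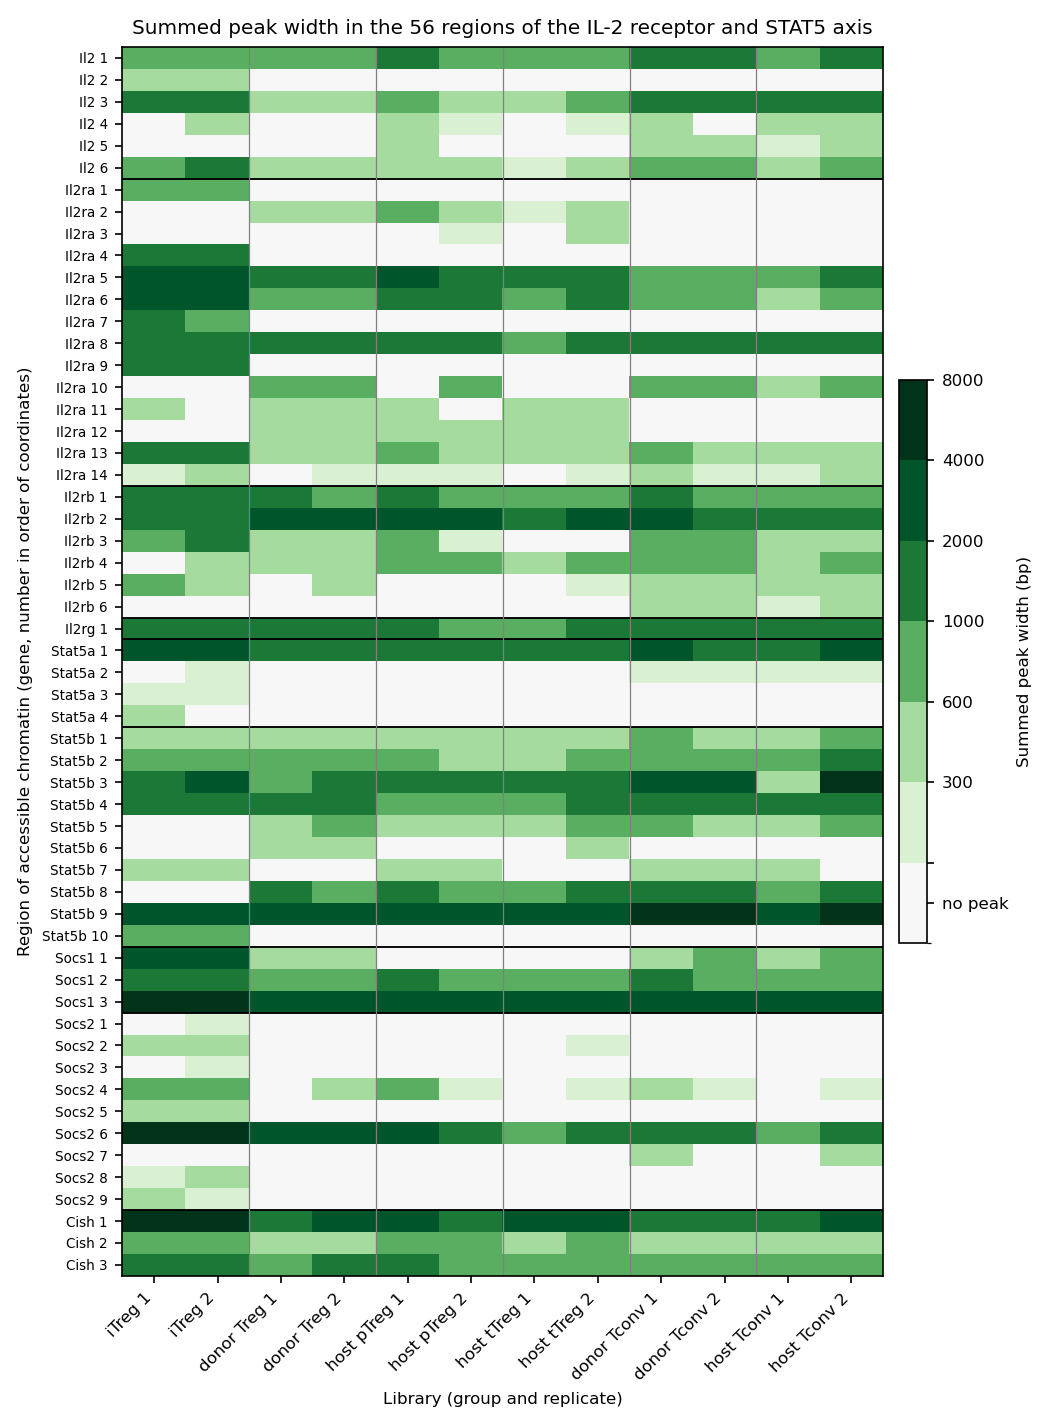
Summed peak width in bp (colour) of the 56 regions of the axis (rows, by gene and number) in each of the 12 libraries (columns, in pairs by group). White is no peak. The 22 rows filled from left to right are open in every library, and the 10 rows filled in the iTreg columns alone lie at Il2, Il2ra, Stat5a, Stat5b and Socs2.

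Il2, the gene of the cytokine (chr3:37120713-37125954, minus strand), had 6 regions, of which region 1 covered its start and the other 5 lay upstream of it. The clearest difference was in region 3, a distal site 26.8 kb upstream (chr3:37152078-37153425). Its summed width was 1247 and 1340 bp in iTreg, 352 and 376 bp in donor Treg, 961 and 441 bp in host pTreg, 410 and 681 bp in host tTreg, 1256 and 1275 bp in donor Tconv and 1006 and 1266 bp in host Tconv. All 6 in vivo regulatory libraries were narrower than the 6 others, and the donor Treg libraries were the narrowest. The number in the library names divides the libraries in the same way, and its part in this difference was not tested. Relative to the median region of each library, the width fell by 1.50 ± 0.23 on the log2 scale (SE; limma, adjusted p = 0.00936) in donor Treg against donor Tconv. It was wider by 1.42 ± 0.23 in iTreg than in donor Treg (adjusted p = 0.00323), and this comparison shares its donor Treg libraries with the one before. The iTreg call was kept whichever library was left out. The donor call was lost without donor Treg replicate 1 (adjusted p = 0.0569), donor Tconv replicate 1 (0.0654) or donor Tconv replicate 2 (0.0718). In the host cells the log2 difference was -0.64 ± 0.23 for host pTreg and -0.76 ± 0.23 for host tTreg against host Tconv, with adjusted p of 0.136 and 0.0573, so neither passed 0.05.

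Region 6 of Il2, 47.5 kb upstream, had 922 and 1017 bp in iTreg, 408 and 412 bp in donor Treg, 560 and 387 bp in host pTreg, 241 and 460 bp in host tTreg, 880 and 788 bp in donor Tconv and 532 and 827 bp in host Tconv. The iTreg libraries were the widest, and every in vivo regulatory library except host pTreg replicate 1 lay below every conventional one. The width was called narrower in host tTreg than in host Tconv (log2 difference -0.66 ± 0.19, limma, adjusted p = 0.0400) and wider in iTreg than in donor Treg (0.83 ± 0.19, adjusted p = 0.0145). The first call was lost on leaving out any of 9 of the 12 libraries (all but the host pTreg pair and host tTreg replicate 2), with adjusted p of 0.0557 to 0.228. The second was lost without either donor Treg or either iTreg library (0.0646 to 0.0798). Region 5, 35.2 kb upstream, was open in host pTreg replicate 1 (318 bp), in no other regulatory library and in all 4 conventional libraries (361 and 349 bp in donor Tconv, 244 and 327 bp in host Tconv). A two-sided Fisher's exact test of 8 regulatory against 4 conventional libraries gave p = 0.0101 for it, adjusted p = 0.0996.

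The Il2 promoter region (region 1) was open in every library but not in the same shape. It measured 762 and 669 bp in iTreg, 972 and 886 bp in donor Treg, 1080 and 827 bp in host pTreg, 639 and 880 bp in host tTreg, 1241 and 1055 bp in donor Tconv and 682 and 1190 bp in host Tconv. In both iTreg libraries, host tTreg replicate 1 and host Tconv replicate 1 it was split into 2 peaks, and the gap lay over the upstream NFAT match of the sequence above, at -137. That match was under a peak in the other 8 libraries, and the match at -48 in all 12. The region was narrower in iTreg than in donor Treg (log2 difference -0.79 ± 0.17, limma, adjusted p = 0.0109). This call was lost without donor Treg replicate 1 (0.0783) or iTreg replicate 2 (0.0916), with peaks of at least 300 bp alone (-0.76, 0.0567) and when widths were not centred on the library median (-0.38, 0.314). Region 2, 2.5 kb upstream, was open in the iTreg libraries only, with 484 and 454 bp.

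Il2ra, the gene of CD25 (chr2:11642792-11693194, plus strand), held 14 regions, the most of any member, and 10 of them were closed in at least 1 library. The 6 in vivo regulatory libraries shared 2 regions that no other library had. Region 2, 16.5 kb upstream (chr2:11625833-11626687), measured 564 and 397 bp in donor Treg, 855 and 444 bp in host pTreg and 254 and 439 bp in host tTreg. Region 12, in the gene body 20.2 kb from the start (chr2:11662719-11663243), measured 439 and 473 bp, 426 and 440 bp, and 418 and 504 bp in the same groups. Neither was open in iTreg, although iTreg cells were also sorted as CD25-positive. This pattern was met by 2 of 56 axis regions (3.57%) and by 298 of all regions (0.388%). The neighbouring region 11, 19.5 kb from the start, was open in 5 of the 6 in vivo regulatory libraries and in iTreg replicate 1 and in no conventional library.

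The iTreg libraries opened a different set of Il2ra regions. Regions 1 and 4, 19.6 and 12.6 kb upstream, measured 890 and 874 bp and 1197 and 1222 bp in iTreg. Regions 7 and 9, 8.6 and 12.4 kb into the gene, measured 1026 and 944 bp and 1281 and 1331 bp. None of these 4 had a peak in any other library, whereas region 10, 15.0 kb into the gene, was closed in iTreg and host tTreg and open in both libraries of donor Treg, donor Tconv and host Tconv (563 to 908 bp) and in host pTreg replicate 2 (663 bp). Region 13, 21.3 kb into the gene, had 1353 and 1315 bp in iTreg against 442 and 490 bp in donor Treg, a log2 difference of 1.11 ± 0.25 (limma, adjusted p = 0.0145), which was lost without either iTreg or either donor Treg library (0.0567 to 0.0879).

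**Figure D2:**
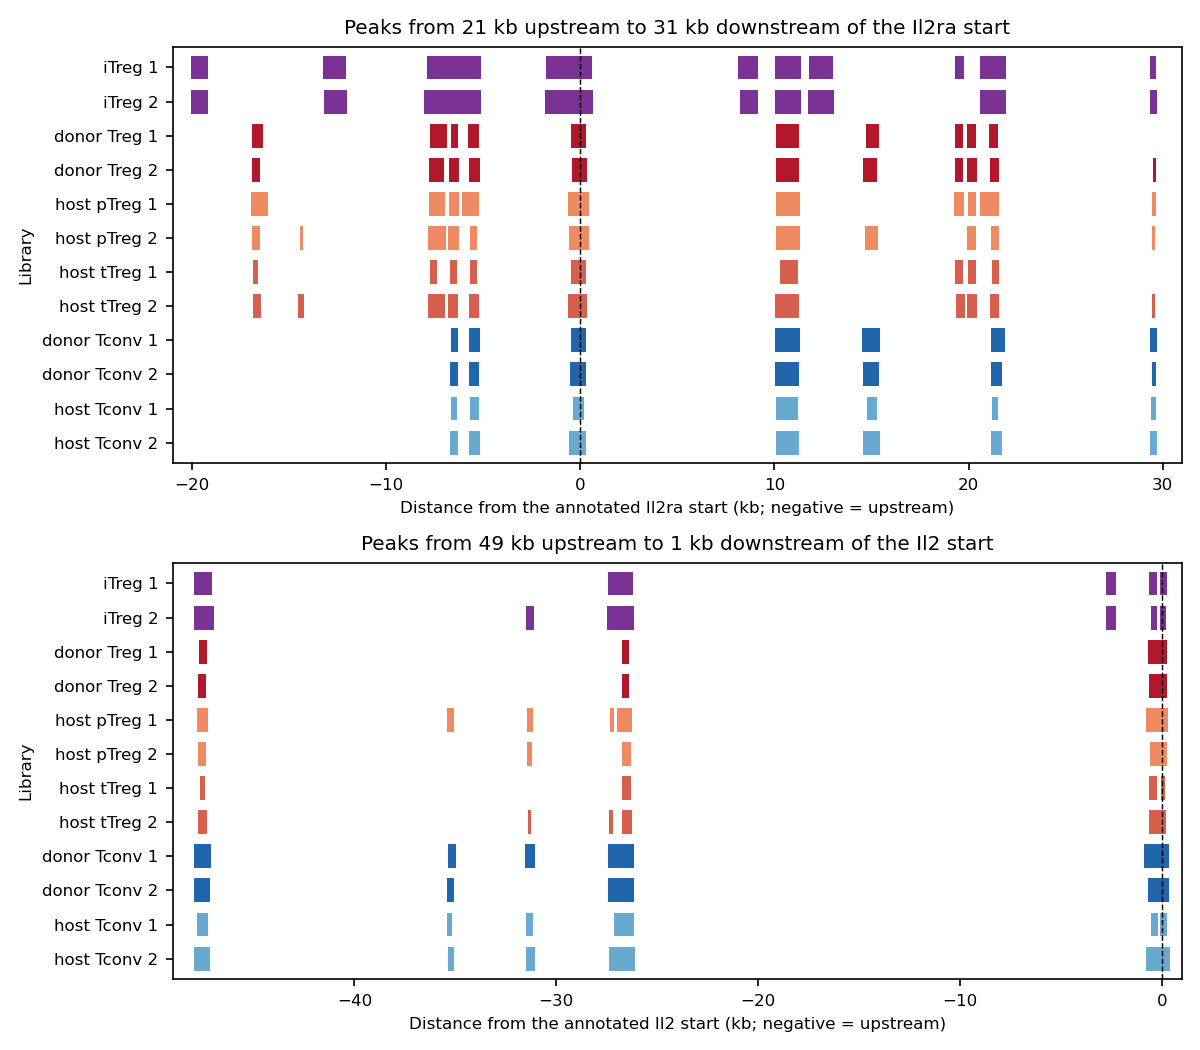
Peaks of the 12 libraries (rows, coloured by group) at Il2ra (upper panel) and upstream of Il2 (lower panel), by distance in kb from the annotated start (dashed line). At Il2ra the regions 16.5 kb upstream and 20.2 kb downstream are filled in the 6 in vivo regulatory rows only, and the iTreg rows hold 4 regions of their own; at Il2 the site 26.8 kb upstream is shortest in the donor Treg rows.

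Region 5 of Il2ra, centred 6.6 kb upstream (chr2:11634749-11637685), differed within its length. It measured 2788 and 2937 bp in iTreg, 1820 and 1876 bp in donor Treg, 2216 and 1802 bp in host pTreg, 1039 and 1952 bp in host tTreg, 970 and 929 bp in donor Tconv and 779 and 1039 bp in host Tconv. Each in vivo regulatory library had 3 peaks there, the outermost beginning between -7.87 and -7.72 kb from the start. Each conventional library had 2 peaks, beginning between -6.73 and -6.67 kb and matching the inner pair, and each iTreg library had 1 peak across the whole stretch from -7.92 or -8.04 kb on. The outer segment was thus open in 8 of 8 regulatory and 0 of 4 conventional libraries, a description made after the peaks were seen. Because merging joined it to its neighbours, it was not counted as a region of its own. The width was larger by 1.26 ± 0.16 (log2) in donor Treg than in donor Tconv (limma, adjusted p = 0.00428), by 1.31 ± 0.16 in host pTreg and by 1.00 ± 0.16 in host tTreg than in host Tconv (adjusted p = 0.00146 and 0.00322). Between these groups, which were sorted apart on CD25, the differences are given as descriptions of the sorted cells. All 3 calls were kept whichever library was left out. They ended when only the widest peak of each library was measured (0.91, 0.89 and 0.45, adjusted p = 0.0930, 0.0590 and 0.280) or when widths were not centred (0.96, 1.15 and 0.66, adjusted p = 0.107, 0.0702 and 0.138).

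The Il2ra promoter region (region 6) measured 2335 and 2488 bp in iTreg, 756 and 793 bp in donor Treg, 1048 and 1031 bp in host pTreg, 757 and 1009 bp in host tTreg, 804 and 796 bp in donor Tconv and 596 and 858 bp in host Tconv. The iTreg peaks began at -1.76 and -1.84 kb from the start and the others between -0.64 and -0.40 kb. Between the CD25-positive iTreg and donor Treg the log2 difference was 1.22 ± 0.12 (limma, adjusted p = 0.000233), kept whichever library was left out. Against host Tconv, the width was larger by 0.70 ± 0.12 in host pTreg (adjusted p = 0.00683) and by 0.62 ± 0.12 in host tTreg (0.00837), and the host pTreg call was lost without host pTreg replicate 2 (0.0615). Region 8, 10.7 kb into the gene, was open in every library. Region 14, 29.5 kb into the gene, was a small peak of 150 to 339 bp in 10 libraries.

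Il2rb, the gene of the signalling beta chain (chr15:78479256-78511621), had 6 regions. Its strand is not in the tables used here, so distances are given from its ends. Region 6, 4.3 kb beyond the high-coordinate end (chr15:78515649-78516184), had a peak in the 4 conventional libraries alone, with 522 and 511 bp in donor Tconv and 293 and 365 bp in host Tconv. It was the 1 axis region called by the Fisher's exact test of 8 regulatory against 4 conventional libraries (p = 0.00202, adjusted p = 0.0317). The test covered the 11 axis regions whose number of libraries with a peak allowed an unadjusted p below 0.05. Over all 18887 such regions, 1.39% were called more often open in regulatory libraries and 4.98% more often in conventional libraries. No axis region was called by this test as more often open in regulatory libraries. None had an unadjusted p under 0.05 in that direction, against 3 in the other. Over all 18887 tested regions these numbers were 587 and 2288. Regions open in 3 to 5 libraries could reach such a p only for conventional libraries, and those open in 7 to 9 only for regulatory ones. Il2ra regions 2, 11 and 12, open in 6 regulatory and 0 conventional libraries (Fisher's exact test, p = 0.0606), could not reach it. These counts therefore cannot compare the 2 directions. Within run code BW13, too, Il2rb region 6 was closed in both donor Treg libraries and open in all 4 conventional ones. The call ended without any in vivo regulatory library, either donor Tconv library or host Tconv replicate 2, and then 0 of all regions were called as well. Without iTreg replicate 2 the number called for conventional libraries was 2. The call also ended when every list was trimmed to its 28394 widest peaks or to peaks of at least 300 bp.

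Region 5 of Il2rb, 3.2 kb beyond the same end, was open in both libraries of iTreg (610 and 580 bp), donor Tconv (534 and 491 bp) and host Tconv (329 and 384 bp), in donor Treg replicate 2 (500 bp) and host tTreg replicate 2 (226 bp), and in no host pTreg library. Region 3, inside the gene, was closed in both host tTreg libraries and open in all 10 others, with 610 and 150 bp in host pTreg. Region 2, the broadest (chr15:78492862-78495907, in the gene body), measured 1226 and 1316 bp in iTreg, 2681 and 2653 bp in donor Treg, 2957 and 2071 bp in host pTreg, 1852 and 2777 bp in host tTreg, 2506 and 1728 bp in donor Tconv and 1714 and 1902 bp in host Tconv. In iTreg it ended 17.4 kb from the high-coordinate end of the gene, whereas all 10 other libraries had peaks that reached 18.5 to 18.8 kb. The iTreg width was smaller than that of donor Treg by a log2 difference of -1.48 ± 0.17 (limma, adjusted p = 0.000475), and no library left out ended this call. Against host Tconv it was larger by 0.61 ± 0.17 in host pTreg (adjusted p = 0.0484) and by 0.66 ± 0.17 in host tTreg (0.0270). The host pTreg call was lost without any of 8 libraries (each host pTreg, host Tconv, donor Treg and iTreg library, adjusted p = 0.0675 to 0.204), and the host tTreg call without host tTreg replicate 2 (0.108) or host Tconv replicate 2 (0.133).

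Il2rg, the common gamma chain that IL-2 shares with the receptors for several other cytokines (chrX:101264385-101268255), had a single region at its start. It measured 1462 and 1525 bp in iTreg, 1267 and 1231 bp in donor Treg, 1320 and 854 bp in host pTreg, 752 and 1228 bp in host tTreg, 1467 and 1404 bp in donor Tconv and 1271 and 1447 bp in host Tconv. Relative to the library medians no comparison passed 0.05, and the log2 differences lay between -0.19 ± 0.16 (host pTreg against host Tconv) and 0.10 ± 0.16 (donor Treg against donor Tconv).

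Stat5a and Stat5b, the transducers, lie next to each other (chr11:100859351-100885169 and chr11:100780731-100859004). At Stat5a, region 1 at the start measured 2805 and 3676 bp in iTreg, 1615 and 1688 bp in donor Treg, 1524 and 1277 bp in host pTreg, 1215 and 1521 bp in host tTreg, 2710 and 1605 bp in donor Tconv and 1355 and 2428 bp in host Tconv. Within donor Tconv and within host Tconv the 2 libraries differed in bp by more than the mean of either group differed from those of the in vivo regulatory groups it was set against, and no comparison was called (iTreg against donor Treg, 0.55 ± 0.21, limma, adjusted p = 0.107). Region 2, a small site in the gene body, was open in iTreg replicate 2 (187 bp) and in all 4 conventional libraries (266 and 150 bp in donor Tconv, 150 and 225 bp in host Tconv). By Fisher's exact test its p was 0.0101 and its adjusted p 0.0996.

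Stat5b had 10 regions, all in the gene body, and 5 were open in every library. Regions 5 and 8 were closed in both iTreg libraries and open in all 10 in vivo libraries, at 449 to 772 bp and 739 to 1328 bp, a pattern of 2 of 56 axis regions (3.57%) and 489 of all regions (0.636%). Region 10 was the reverse, open in iTreg only with 679 and 705 bp. Region 9 (chr11:100846691-100852720), the longest, measured 2953 and 3024 bp in iTreg, 3845 and 3974 bp in donor Treg, 3450 and 2274 bp in host pTreg, 2242 and 3941 bp in host tTreg, 4031 and 4117 bp in donor Tconv and 2941 and 4655 bp in host Tconv. Its iTreg peaks ran from -2.14 and -2.13 kb to 0.81 and 0.89 kb from the nearest annotated start. In the 10 in vivo libraries its peaks began between -1.03 and -0.46 kb and ended between 2.86 and 3.89 kb, so position differed as well as width. In iTreg region 9 was narrower than in donor Treg relative to the library medians (-0.80 ± 0.18, limma, adjusted p = 0.0142), as was region 2 (-0.59 ± 0.15, adjusted p = 0.0233). Both calls were lost without any donor Treg or iTreg library (adjusted p = 0.0523 to 0.157) and without centring (-0.39 and -0.18, adjusted p = 0.356 and 0.630), and that of region 9 also when only the widest peak was measured (-0.55, 0.384). Region 6 was open in both donor Treg libraries (459 and 561 bp) and host tTreg replicate 2 (591 bp). Region 7, about 1 kb from it, was closed in those same 3 libraries and in host tTreg replicate 1 and host Tconv replicate 2, and open in the other 7 (436 to 581 bp).

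Among the feedback inhibitors, Cish, Socs1 and Socs2 each had a peak at the gene whose length in bp was largest in iTreg. Relative to the library medians, the difference from donor Treg was called by limma at Cish and Socs1 and not at Socs2. Cish, which binds the IL-2 receptor and limits its signalling (chr9:107296659-107302784, plus strand), had 3 regions, all open in all libraries. Region 1 over the start measured 6813 and 6735 bp in iTreg, 1892 and 2051 bp in donor Treg, 2098 and 1815 bp in host pTreg, 2004 and 2150 bp in host tTreg, 1974 and 1734 bp in donor Tconv and 1513 and 2061 bp in host Tconv. The iTreg peaks ended 5.28 and 5.22 kb downstream of the start, so that they covered most of the 6126 bp gene, against 0.51 to 0.85 kb in the 10 in vivo libraries, whose groups overlapped. The log2 difference of iTreg from donor Treg was 1.37 ± 0.12 (limma, adjusted p = 0.000154), kept whichever library was left out. Against host Tconv, the region was called wider in host tTreg (0.57 ± 0.12, adjusted p = 0.0137), a call lost without host tTreg replicate 1 (0.0767) or host Tconv replicate 1 (0.0602).

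Region 2 of Cish, 3.3 kb beyond the end of the gene, had 890 and 991 bp in iTreg, 515 and 519 bp in donor Treg, 919 and 653 bp in host pTreg, 500 and 959 bp in host tTreg, 520 and 482 bp in donor Tconv and 440 and 440 bp in host Tconv. All host regulatory libraries were above both host Tconv libraries. The log2 difference was 0.97 ± 0.19 for host pTreg (limma, adjusted p = 0.0119) and 0.99 ± 0.19 for host tTreg (0.00815). The host pTreg call was lost without host pTreg replicate 1 (0.0651) or host Tconv replicate 2 (0.0647), and the host tTreg call without host Tconv replicate 2 (0.0529). Region 3, 10.3 kb beyond the end, was called wider by 0.50 ± 0.14 in host pTreg and 0.49 ± 0.14 in host tTreg than in host Tconv (adjusted p = 0.0484 and 0.0408). These calls were lost on leaving out any of 9 and any of 8 of the 12 libraries, including host Tconv replicate 2 for both, with adjusted p of 0.0678 to 0.211 and 0.0571 to 0.202, and also with the replicate block (0.0596 and 0.0507).

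Socs1, an inhibitor of JAK kinases (chr16:10783808-10785536, minus strand), had a peak over its start (region 3). It measured 7079 and 7404 bp in iTreg, 2839 and 2680 bp in donor Treg, 2676 and 2479 bp in host pTreg, 2481 and 2657 bp in host tTreg, 2661 and 2675 bp in donor Tconv and 2610 and 2665 bp in host Tconv. The 10 in vivo libraries lay between 2479 and 2839 bp. In iTreg the peak ran on to 5.28 and 5.51 kb downstream of the start, past the end of the 1729 bp gene. In the other libraries it ended 1.24 to 1.46 kb downstream, short of the gene's end. The log2 difference of iTreg from donor Treg was 0.98 ± 0.15 (limma, adjusted p = 0.00213), kept whichever library was left out. Region 1 of Socs1, 14.5 kb beyond the gene's end, was open in iTreg (2053 and 2274 bp), donor Treg (485 and 585 bp), donor Tconv (556 and 612 bp) and host Tconv (421 and 618 bp), and closed in all 4 host regulatory libraries, which are also the libraries of run code DR31.

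Socs2, an inhibitor best known for limiting growth hormone signalling (chr10:95383903-95417321), had a wider peak at the gene in donor Treg than in donor Tconv. Region 6, at the high-coordinate end of the gene, measured 4127 and 4109 bp in iTreg, 2210 and 2688 bp in donor Treg, 2311 and 1069 bp in host pTreg, 900 and 1120 bp in host tTreg, 1063 and 1103 bp in donor Tconv and 787 and 1238 bp in host Tconv. Donor Treg and host pTreg replicate 1 were above all conventional and host tTreg libraries, and host pTreg replicate 2 lay among these. The iTreg libraries had the largest widths in bp, but relative to the library medians their log2 difference from donor Treg was 0.34 ± 0.23 (limma, adjusted p = 0.329) and did not pass. The log2 difference of donor Treg from donor Tconv, both of run code BW13, was 1.47 ± 0.23 (limma, adjusted p = 0.0101). It was lost without donor Treg replicate 2 (0.0576), donor Tconv replicate 1 (0.0871) or donor Tconv replicate 2 (0.0568), and without centring (1.17, 0.115). For host pTreg against host Tconv it was 0.83 ± 0.23 (adjusted p = 0.0530), and the difference between these 2 effects, 0.64 ± 0.33, did not pass either (adjusted p = 0.618). Of the other 8 Socs2 regions, 3 were open in both iTreg libraries and no other (150 to 353 bp) and 2 in a single iTreg library.

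**Figure D3:**
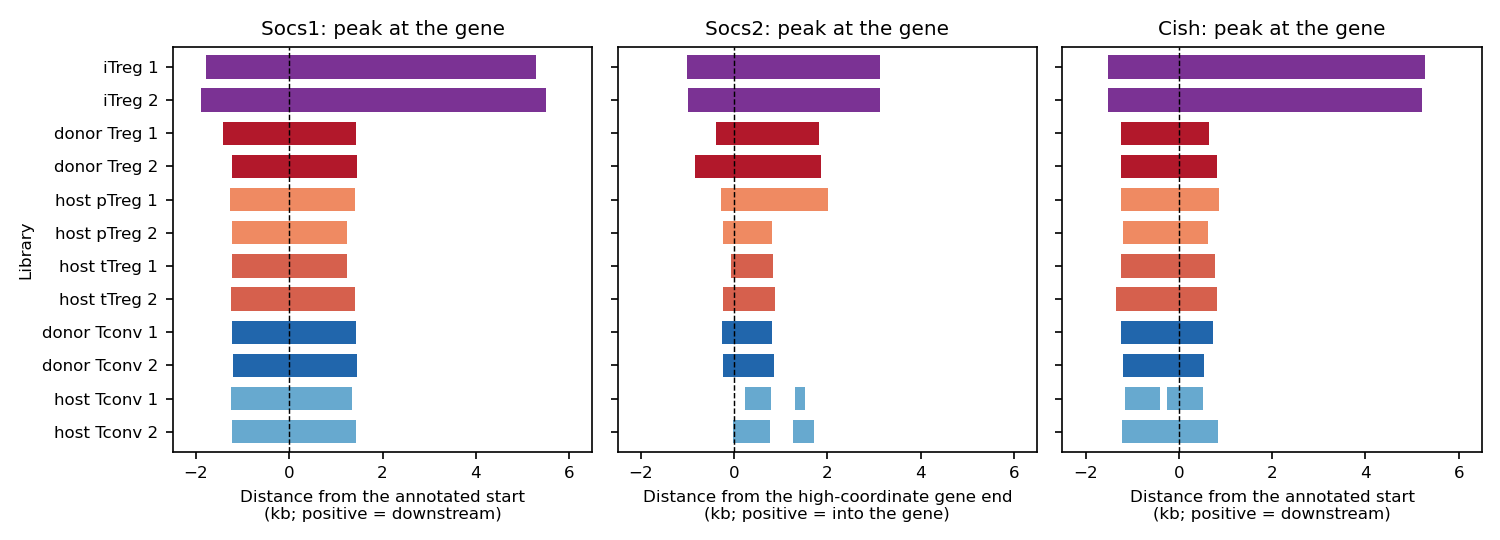
Peaks at Socs1 (region 3), Socs2 (region 6) and Cish (region 1) in the 12 libraries (rows, coloured by group), by distance in kb from the annotated start or, for Socs2, from the high-coordinate end of the gene (dashed line). Both iTreg rows reach beyond 5 kb at Socs1 and Cish, and at Socs2 the donor Treg rows are longer than the donor Tconv rows.

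**Figure D4:**
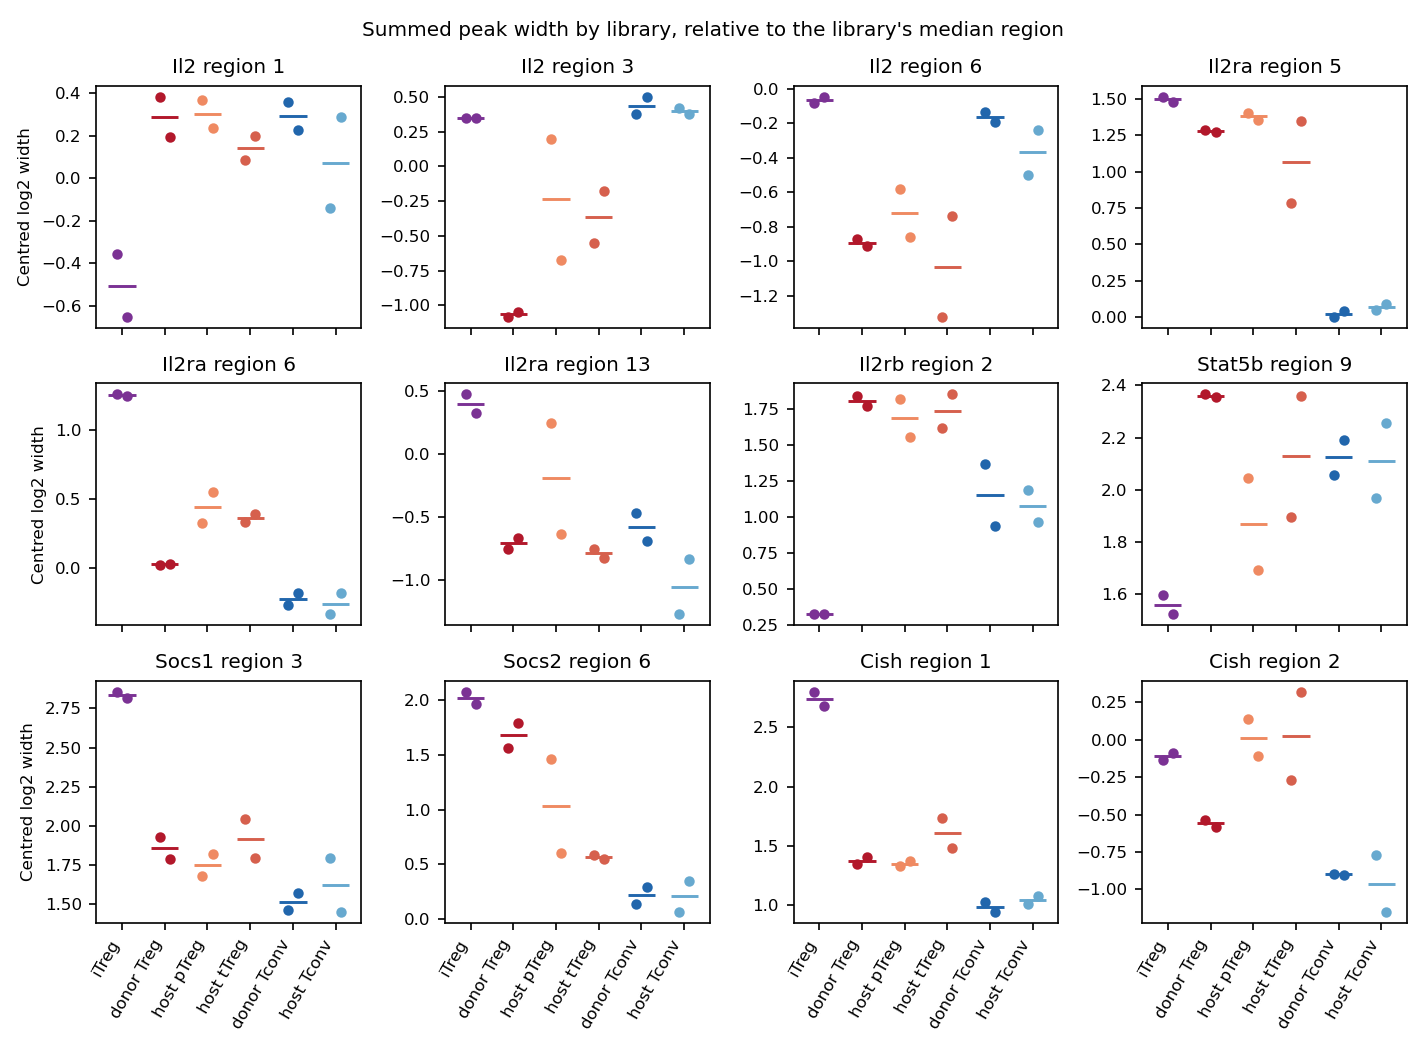
Log2 summed width less the median of the library (y axis, a scale for each panel) of 12 axis regions among those called in a comparison, for the 6 groups (x axis). Points are the 2 libraries of a group and bars their mean. In Il2ra region 5 the conventional points lie near 0 and the regulatory points between 0.78 and 1.51, and in Il2 region 3 the donor Treg points are the lowest.

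Counted over the axis, donor Treg and donor Tconv differed in presence at 8 of the 41 regions open in at least 1 of their 4 libraries. The 4 regions (9.76%) open in each donor Treg library but closed in donor Tconv were Stat5b region 6 and Il2ra regions 2, 11 and 12, against 2.41% of all regions, and 3 of the 4 belong to the sorted marker. The 4 (9.76%) with the opposite pattern were Stat5b region 7, Stat5a region 2, Il2rb region 6 and Il2 region 5, against 19.9% of all regions. Their number was 7 without donor Treg replicate 2 and 2 in lists of equal length. With 2 libraries against 2 no p under 0.05 is possible for a region, so these counts are descriptions. For widths, 2 of the 22 axis regions open in all libraries were wider (0.877% of all 21435 such regions) and 1 narrower (2.47%). The wider ones were Il2ra region 5, at the gene of the sorted marker, and Socs2 region 6, and the narrower one was Il2 region 3. Together these calls numbered 1 without either donor Tconv library. The median log2 difference was 0.24 over the 22 regions and 0.07 over all.

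The comparisons of host pTreg and of host tTreg with host Tconv share their host Tconv libraries. Of 41 regions, 2 (4.88%, near the 5.51% of all regions) were open in both host pTreg and neither host Tconv library, again Il2ra regions 2 and 12. The 4 with the opposite pattern (9.76%, against 11.5%) were Stat5a region 2, Il2rb regions 5 and 6 and Socs1 region 1, and 1 in lists of equal length. For host tTreg the counts were 3 of 43 (6.98%, against 3.86%), all at Il2ra, and 6 (14.0%, against 15.2%). Without host tTreg replicate 1 the first of these counts was 6. The 6 open in host Tconv were the Stat5a, Socs1 and Il2rb region 6 sites just named with Il2rb region 3, Il2ra region 10 and Il2 region 5. Widths gave 5 wider axis regions (4.83% of all) and 0 narrower (3.93%) in host pTreg. There, 11 of 22 axis regions and 4792 of all 21435 had an unadjusted p under 0.05 in either direction. In host tTreg widths gave 6 wider (6.55%) and 1 narrower (6.74%). The wider ones were Il2ra regions 5 and 6, Cish regions 2 and 3 and Il2rb region 2 in both comparisons, and Cish region 1 in host tTreg. Those at Il2ra, the gene of the sorted marker, do not count as findings. The calls numbered 2 in host pTreg and 4 in host tTreg without host Tconv replicate 2, 3 in host pTreg without host pTreg replicate 1 or either iTreg library, and 4 in host tTreg without host tTreg replicate 1. All 12 calls of these 2 comparisons ended without centring (adjusted p = 0.0702 to 0.506). Fitted on the 2 groups alone, those of Il2rb region 2 and Cish region 3 ended in both comparisons and those of Il2ra region 6, Il2 region 6 and Cish region 1 in host tTreg (0.0732 to 0.210). Uncentred, the median of all regions moved to -0.23 in donor Treg against donor Tconv, -0.14 and -0.29 in host pTreg and host tTreg against host Tconv, and 0.35 in iTreg against donor Treg.

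iTreg and donor Treg differed most. Of 52 axis regions, 12 (23.1%) were open in both iTreg and neither donor Treg library, below the 34.7% of all regions, and 6 (11.5%) had the opposite pattern, against 2.92% of all regions. The 12 were 4 at Il2ra, 4 at Socs2 (regions 2, 5, 8 and 9), Stat5b regions 7 and 10, Stat5a region 3 and Il2 region 2, and the 6 were Il2ra regions 2, 10 and 12 and Stat5b regions 5, 6 and 8. Widths gave 6 wider (8.04% of all regions) and 4 narrower (8.26%) axis regions. Wider were Cish region 1, Il2 regions 3 and 6, Il2ra regions 6 and 13 and Socs1 region 3, and narrower were Il2rb region 2, Stat5b regions 2 and 9 and Il2 region 1. The 10 calls became 5 or 6 without any of the 4 libraries compared, and the 12 regions open in iTreg became 5 in lists of equal length. The CD25-positive iTreg and donor Treg also differ in culture against tissue, in the labels of their source and in list length, and these cannot be told apart.

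No axis region separated donor Tconv from host Tconv in presence, with 0 of 37 open in both libraries of either group and neither of the other, against 4.4% of all regions for donor Tconv and 0.557% for host Tconv. For widths limma called 0 axis regions, against 0.084% wider and 0.00467% narrower of all regions. An unadjusted p under 0.05 was reached by 0 of 22 axis regions and 1324 of all 21435. Host pTreg and host tTreg differed in presence at 2 of 39 axis regions (5.13%, against 3.35%), Stat5b region 7 and Il2rb region 3, both open in host pTreg, and at 0 in the other direction (0.452% of all regions). These counts were 5 without host tTreg replicate 2 and, in the other direction, 3 without host tTreg replicate 1 and 1 without host pTreg replicate 1. Limma called no width between them in the axis, against 0.182% wider and 0.0327% narrower of all regions. An unadjusted p under 0.05 was reached by 1 of 22 axis regions and 1687 of all 21435. The difference between the donor effect (donor Treg less donor Tconv) and the host effect (host pTreg less host Tconv) was called by limma at 0 of 22 axis regions and at 60 of all 21435. Its unadjusted p was under 0.05 at 5 of the 22 and at 1957 of all 21435.

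**Figure D5:**
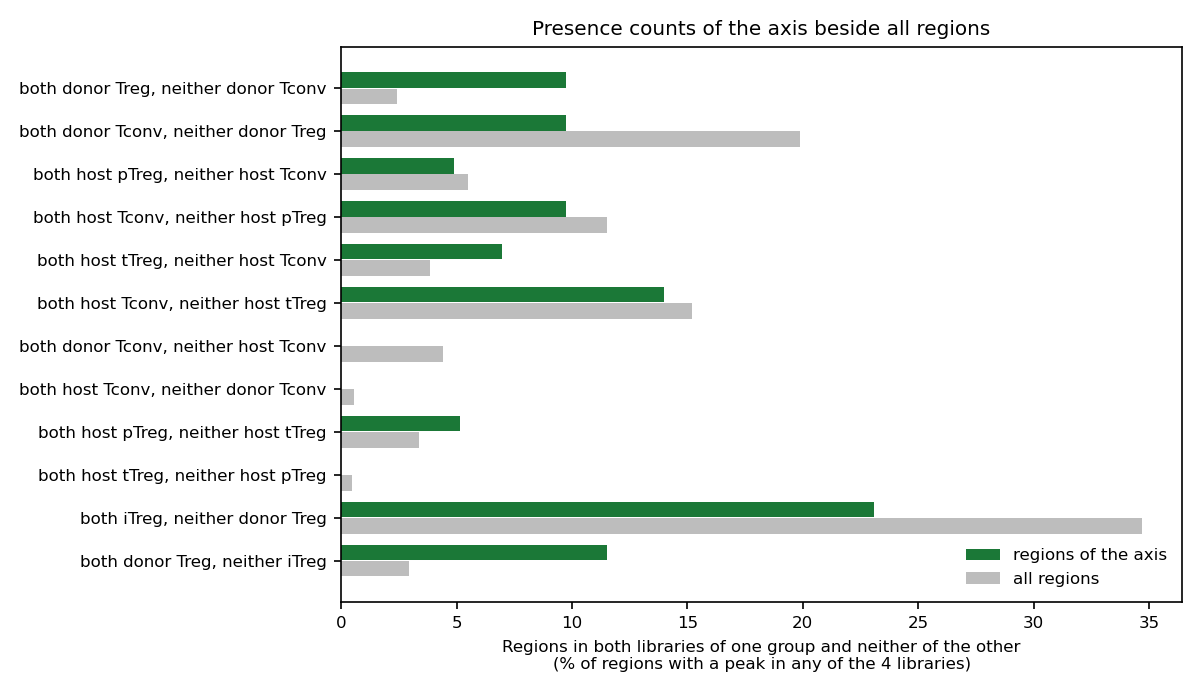
Share in percent of regions open in both libraries of the first group named and in neither of the second (x axis), out of regions with a peak in any of the 4 libraries, for each comparison and direction (y axis). Green bars are axis regions and grey bars all regions. The axis bar is longer than the bar of all regions for donor Treg against donor Tconv (9.76% and 2.41%, where 3 of the 4 axis regions lie at Il2ra, the gene of the sort marker), host tTreg against host Tconv (6.98% and 3.86%, all at Il2ra), host pTreg against host tTreg (5.13% and 3.35%) and donor Treg against iTreg (11.5% and 2.92%), and at 0 between donor Tconv and host Tconv.

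Other genes of the pathway, listed from general knowledge but with earlier results of these data known, were counted in the same way. Of 35 genes of the gamma-chain cytokines, their receptors, JAK and STAT proteins and their regulators, 34 had a region and together they had 247. Of the 210 open in iTreg or donor Treg, 50 (23.8%) were open in both iTreg and no donor Treg library and 8 (3.81%) the reverse, against 34.7% and 2.92% of all regions. Of 90 widths tested in that comparison 7 (7.78%) were wider and 16 (17.8%) narrower, against 8.04% and 8.26%. In donor Treg against donor Tconv, 7 of 191 regions (3.66%) were open in both donor Treg and no donor Tconv library and 29 (15.2%) the reverse. All regions gave 2.41% and 19.9%. Of the 90 widths 1 (1.11%) was wider and 3 (3.33%) narrower, against 0.877% and 2.47%. In host pTreg against host Tconv the presence counts were 12 (6.22%) and 19 (9.84%) of 193, against 5.51% and 11.5%. Widths gave 6 wider (6.67%) and 4 narrower (4.44%), against 4.83% and 3.93%. In host tTreg against host Tconv the presence counts were 6 (3.19%) and 25 (13.3%) of 188, against 3.86% and 15.2%. Widths gave 5 wider (5.56%) and 3 narrower (3.33%), against 6.55% and 6.74%.

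The 18 genes listed as STAT5 targets had 178 regions. In iTreg against donor Treg, 24 of 147 (16.3%) were open in both iTreg and no donor Treg library and 21 (14.3%) the reverse. All regions gave 34.7% and 2.92%. Of the 21, 12 lay at 1 gene that is also among the Treg markers. Of 56 widths 7 (12.5%) were wider and 5 (8.93%) narrower, against 8.04% and 8.26%. That gene held 0 of the wider and 2 of the narrower ones. In donor Treg against donor Tconv the counts were 11 (7.86%) and 24 (17.1%) of 140, against 2.41% and 19.9% of all regions. The same gene held 6 of the 11. Of 56 widths 3 (5.36%) were wider and 1 (1.79%) narrower, against 0.877% and 2.47%. Of the 3 wider, 2 lay at that gene. In host pTreg against host Tconv the counts were 21 (13.9%) and 14 (9.27%) of 151, against 5.51% and 11.5% of all regions. The same gene held 10 of the 21 and 1 of the 14. By gene, 4 had more regions open in host pTreg alone and 5 more in host Tconv alone. Widths gave 4 wider (7.14%) and 2 narrower (3.57%), against 4.83% and 3.93%. Of the 4 wider, 3 lay at the gene that is also among the Treg markers. In host tTreg against host Tconv the counts were 16 (10.8%) and 17 (11.5%) of 148, against 3.86% and 15.2% of all regions. The same gene held 8 of the 16. Widths gave 10 wider (17.9%) and 6 narrower (10.7%), against 6.55% and 6.74% of all regions. Of the 10 wider, 4 lay at that gene. The host comparisons share their host Tconv libraries, and the 2 host effects were not tested against each other.

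For the 5 members with at least 5 regions, the genes whose number of open regions followed theirs most closely over the 12 libraries were found in lists trimmed to equal length. For Il2ra they were Ebf2 (Pearson r = 0.958), Rora (0.955) and Lrrc32 (0.952), and for Il2rb Slc37a1 (0.914), Ttc17 (0.914) and Trpm1 (0.908). For Il2 they were Gpr155 (0.876), Pstpip1 (0.873) and Rab10 (0.841), for Stat5b Gfi1 (0.905), Rasl11a (0.876) and Acsf3 (0.866), and for Socs2 Chst12 (0.80), Ank (0.795) and Srl (0.77). The 12 points share library quality and depth, and the genes were picked as the highest of all genes, so these values are descriptions.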

How the data were processed

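ATAC-seq was done on 12 libraries of sorted CD4 T cells. The build was mm10 and the tools bedtools, HOMER 4.10 and Bowtie2 2.3.3, per the submitters' processing notes, without roles, settings or any shift of reads for the transposase. The authors deposited 1 peak list per library. Its coordinates were the measurement, and the deposited score is 1000 for every peak and was not used. Depth is unknown, and the number of libraries limits the precision.

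Peaks sharing 1 bp or more were merged, and regions were given to RefSeq protein-coding genes (GRCm38.p6) with Python 3.11.15, pandas 2.3.3 and scipy 1.17.1. Groups came from the sample titles. Presence was counted in 6 comparisons, and tested for 8 regulatory against 4 conventional libraries with Fisher's exact test (two-sided). Benjamini-Hochberg adjustment at 0.05 ran over regions whose number of libraries with a peak allowed an unadjusted p below 0.05. Summed log2 widths, centred on each library's median, were tested with limma 3.58.1 (R 4.3.3) in 1 fit of all 12 libraries over 21435 regions, with adjusted p-values within each of 7 contrasts; ± is the standard error. Both tests were tested on simulated data. The labels do not say whether replicates came from separate animals, so p-values reflect the spread between these libraries alone, possibly technical. Whether replicate numbers pair samples is not known. Correlations of deviations between same-numbered libraries ran from -0.184 to 0.145 over 15 pairs of groups, which with 2 libraries a group cannot settle it. The members and the gene lists were chosen with earlier results of these data known. Named genes were the 9 members and the 3 genes most like each member with at least 5 regions, and region numbers run by coordinate. Alternatives were list length, peak width, merging, overlap, distance to genes, scaling of widths, the replicate block, run code and each library left out.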

Additional observations from a re-analysis of the deposited data

How the results depend on the processing

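Of 145 counts recomputed under other settings with all or whole groups of libraries kept, 115 stayed within 1.5 times the reported count, and no width call reversed its direction under any alternative. With lists of equal length, regions in donor Tconv and not donor Treg numbered 2, in host Tconv and not host pTreg 1 and in iTreg and not donor Treg 5, and Fisher calls for conventional libraries and regions in every conventional library alone both numbered 0. With peaks of at least 300 bp, those last 2 counts were again 0, host Tconv and not host pTreg gave 2, and host pTreg and not host tTreg gave 1. With merging across gaps of up to 200 bp, donor Treg and not donor Tconv gave 2, and host pTreg and host tTreg, each not in host Tconv, gave 1 and 1. Asking peaks to cover 50% of a region gave 9 for donor Tconv and not donor Treg, 5 for host pTreg and not host Tconv, 1 for donor Tconv and not host Tconv, 1 for host pTreg and not host tTreg, and 20 for iTreg and not donor Treg. Within 10 kb of genes, host pTreg and not host Tconv gave 1 and iTreg and not donor Treg 7. Without iTreg, Fisher calls were 2 in each direction, and 2 regions were in every regulatory library alone and 2 in every conventional library alone; within run code BW13 these last counts were 4 and 3. Width calls without centring numbered 1 for donor Treg against donor Tconv and 0 for host pTreg and for host tTreg against host Tconv; fitted on the 2 groups alone they numbered 5 for donor Treg against donor Tconv and 3 for host tTreg against host Tconv. The causes were not tested.

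Leaving out each library in turn, presence counts ranged from 4 to 4 (donor Treg and not donor Tconv), 4 to 7 (donor Tconv and not donor Treg), 3 to 3 (host pTreg and not host Tconv), 4 to 5 (host Tconv and not host pTreg), 3 to 6 (host tTreg and not host Tconv), 6 to 9 (host Tconv and not host tTreg), 0 to 1 (donor Tconv and host Tconv, each way), 2 to 5 (host pTreg and not host tTreg), 0 to 3 (host tTreg and not host pTreg), 12 to 16 (iTreg and not donor Treg) and 6 to 7 (donor Treg and not iTreg). Fisher calls ranged from 0 to 0 for regulatory and 0 to 2 for conventional libraries, and regions in every regulatory library alone from 0 to 0, in every conventional library alone from 1 to 2. Width calls ranged from 1 to 4 (donor Treg against donor Tconv), 2 to 5 (host pTreg against host Tconv), 4 to 8 (host tTreg against host Tconv), 0 to 1 (donor Tconv against host Tconv), 0 to 1 (host pTreg against host tTreg), 5 to 10 (iTreg against donor Treg) and 0 to 0 for the difference of effects. Of 25 width calls on axis regions, 9 were kept whichever library was left out and 16 were lost without at least 1.

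It is not known whether replicate numbers pair the samples. The replicate block gave 3, 4, 6, 0, 0 and 10 width calls in the 6 comparisons in the order of the ranges above. Over all regions the width calls ranged from 97 to 1832 around 717 (donor Treg against donor Tconv), 403 to 2319 around 1878 (host pTreg against host Tconv), 1625 to 2839 around 2849 (host tTreg against host Tconv), 2 to 296 around 19, 1 to 423 around 46, 1462 to 6010 around 3494 (iTreg against donor Treg) and 2 to 205 around 60 (the difference of effects). Fisher calls over all regions fell to 0 without any in vivo regulatory library, either donor Tconv library or host Tconv replicate 2. Peak height and read depth are not in the lists, so a narrow peak and a weak one cannot be told apart.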
